A study of Rattus norvegicus with 939 samples.

Results

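Gefitinib and erlotinib are small-molecule inhibitors of the epidermal growth factor receptor (EGFR), and both were applied to cultured primary rat hepatocytes, the parenchymal cells of the liver. The 12 arrays described here were all treated arrays labelled Gefitinib or Erlotinib, out of 826 treated arrays and 939 arrays in the whole hepatocyte set. Gefitinib was given at 35 uM on 6 arrays (3 at 0.67 d and 3 at 1 d), which were compared with 8 DMSO vehicle arrays whose description names gefitinib (4 at each time). Erlotinib was given at 10 uM on 6 arrays (3 at 0.67 d and 3 at 1 d), which were compared with 6 DMSO arrays whose description names erlotinib (3 at each time). Of these controls 4 name both compounds, so the comparisons share them, and 10 control arrays were used in all. Treated and control cells alike were hepatocytes in culture, and poly(A) RNA was hybridized to Affymetrix rat arrays. The rat strain, the age of the animals and whether replicate arrays came from separate cultures were not given in the sources used here, so p-values measure the spread between arrays, which may be technical.

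EGFR is a receptor tyrosine kinase abundant on hepatocytes. Ligands of the EGF family, released from the cell surface by ADAM metalloproteases, make EGFR pair with itself or with ERBB3, and the phosphorylated receptor then recruits adaptors that switch on the RAS-RAF-MEK-ERK cascade and PI3 kinase. ERK activity drives a fast wave of transcription factors such as FOS, EGR1 and FOSL1, cyclin D1, and its own inhibitors, among them the Sprouty proteins and the dual-specificity phosphatases DUSP5 and DUSP6. In liver the pathway is best known for hepatocyte proliferation after injury.

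Both drugs are anilinoquinazolines that occupy the ATP pocket of the EGFR kinase. Erlotinib carries an ethynyl group on its aniline ring and a pair of methoxyethoxy chains on the quinazoline, whereas gefitinib carries chlorine and fluorine on the aniline and a basic morpholinopropoxy chain. The doses differed, so their values are given side by side and no difference between the compounds was tested.

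The arrays were alike in overall signal, with medians of 5.54 to 5.62 on the log2 RMA scale over the 22 arrays. Hepatocyte markers averaged 11.5 in the 10 control arrays, a median percentile of 98.9 among all genes, against 7.54 for the markers of Kupffer cells (the macrophages of the liver), 5.27 for stellate cells, 5.7 for endothelial cells and 4.98 for cholangiocytes, so the labelled cell type was borne out and macrophage transcripts were also present. The arrays fell into separate classes by Fam111a, a gene singled out after its values were seen: 8 of the 22 arrays held 3.08 to 3.88 and 14 held 9.84 to 11.17, with nothing between. All 6 erlotinib arrays and all 6 of their controls were in the high class. Of the 6 gefitinib arrays 4 were low and 2 high, and of their controls the 4 that name gefitinib without erlotinib were low and the 4 shared ones high. Gefitinib arrays were hybridized on the same days as 6 of their own controls, while erlotinib arrays shared no hybridization day with their own controls, so day and treatment cannot be told apart in that comparison. A fit with all 10 controls and the hybridization day as a block is therefore given where it changes the call of a described erlotinib gene. It is also given beside some, but not all, erlotinib differences that it turns or moves. In that fit the controls of the treated days were all of the low Fam111a class.

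A gene was called when limma's Benjamini-Hochberg adjusted p over 14218 genes was at most 0.01 and the difference at least 1.5-fold. Genes named only for a day-blocked call were picked after their values were seen. With gefitinib 472 genes were higher (3.32% of all genes tested) and 844 lower (5.94%), and 873 of these 1316 did not overlap between treated and control arrays, which over all genes was so for 1761 (12.4%). With erlotinib 4 genes were higher (0.0281%) and 8 lower (0.0563%), and 9 of the 12 did not overlap, against 209 genes overall (1.47%). Counts in the gene lists below are to be read against these shares over all genes. After subtracting each array's median the gefitinib calls split into 592 higher and 738 lower. The split of the erlotinib calls moved with the scaling, to 10 higher and 7 lower after subtracting each array's median and to 9 higher and 8 lower after quantile normalization. The day-blocked fit called 21 genes higher (0.148%) and 60 lower (0.422%) with erlotinib, and 6 of the 12 genes were called in both fits with the same sign. Over both times together, Cyp1a1 was the 1 erlotinib call kept under every alternative run, and the number of calls ranged from 2 to 16 when any 1 array was left out. The median log2 difference of all genes was 0.02 with gefitinib and -0.02 with erlotinib.

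**Figure D1:**
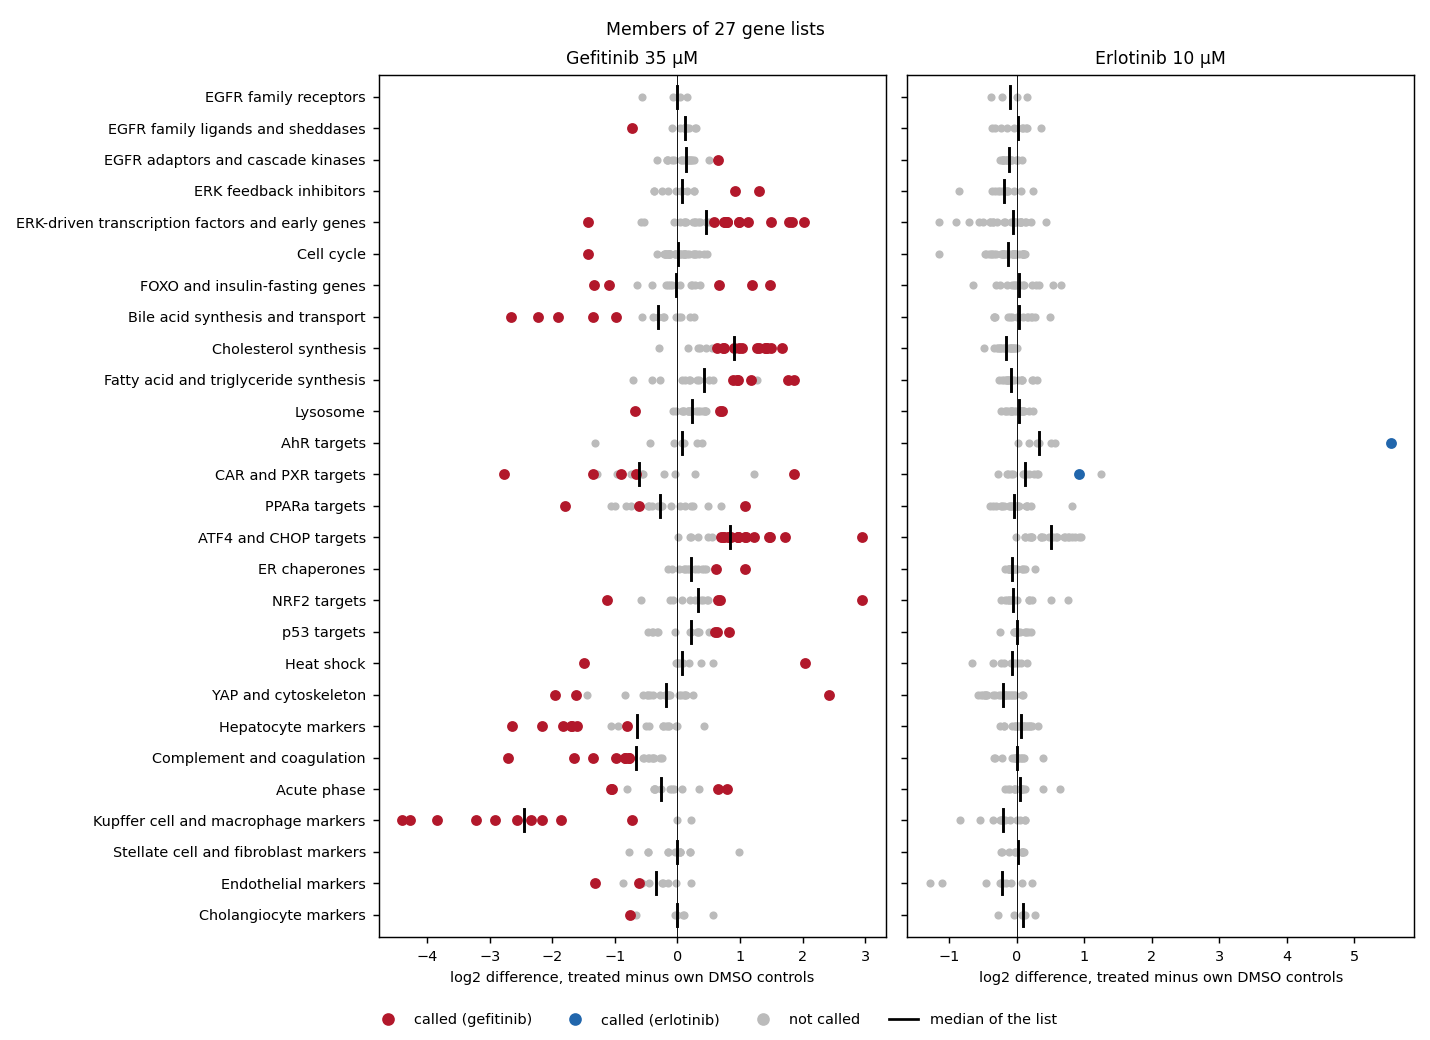
Log2 difference, treated minus own DMSO controls, of every measured member of 27 gene lists, with gefitinib at 35 uM on the left and erlotinib at 10 uM on the right; coloured points were called, grey points were not, black bars are list medians, and each panel has its own scale. With gefitinib the macrophage markers lie at a median of -2.45 and the cholesterol synthesis genes at 0.91, while with erlotinib the farthest point is Cyp1a1 among the AhR targets, at 5.55.

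The receptors themselves were not called with either compound. Egfr held 9.08 to 9.39 (median 9.14) on gefitinib arrays and 8.85 to 9.22 (median 9.04) on their controls, a log2 difference of 0.15 ± 0.06 (SE, adjusted p = 0.0612). On erlotinib arrays Egfr held 8.22 to 8.93 (median 8.59) and on their controls 8.75 to 9.22 (median 8.97), a difference of -0.38 ± 0.08 (adjusted p = 0.0465). The groups overlapped in both comparisons. Erbb3, the kinase-impaired partner of EGFR, differed by -0.56 with gefitinib (adjusted p = 0.00199), just under 1.5-fold, and by 0.14 with erlotinib (adjusted p = 0.426; -0.08 in the day-blocked fit). Erbb2 differed by -0.08 and Erbb4 by 0.05 with gefitinib, and with erlotinib the differences were -0.22 and 0.00. Within the hybridization days Erbb2 differed by 0.19 and -0.05 and Erbb4 by 0.13 and -0.33 with erlotinib. Neither Erbb2 nor Erbb4 was called. Over the 22 arrays their mean values were 4.99 and 3.99, below the median of every array, so a change could be missed.

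Of 10 measured ligands and sheddases, Btc (betacellulin, a ligand of EGFR and ERBB4) was the member called, and it fell with gefitinib. Its values were 5.86 to 6.64 (median 6.23) on gefitinib arrays and 6.75 to 7.21 (median 7.05) on controls, a 1.65-fold difference of -0.72 ± 0.12 on the log2 scale (adjusted p = 0.000305), and the groups did not overlap. With erlotinib Btc differed by -0.33 (adjusted p = 0.273), and by 0.05 in the day-blocked fit. The ligands Tgfa, Hbegf, Areg, Ereg and Egf differed by 0.30, 0.13, 0.10, 0.15 and 0.18 with gefitinib and by -0.05, -0.37, 0.08, 0.10 and 0.36 with erlotinib, none of them called, and Egf by -0.01 in the day-blocked fit. The neuregulins Nrg1 and Nrg4 differed by 0.28 and 0.11 with gefitinib and by 0.13 and 0.15 with erlotinib. Areg, Nrg4, Ereg and Egf averaged 3.65, 4.02, 4.43 and 4.65 over the 22 arrays. These values lay below the median of every array, so a change could be missed. The sheddases Adam17 and Adam10 differed by 0.04 and -0.09 with gefitinib, and by -0.14 and -0.23 with erlotinib. The list's median was 0.12 with gefitinib and 0.01 with erlotinib. Over all genes 3.32% were called higher and 5.94% lower with gefitinib, so 1 call among 10 says little about the list.

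Among 18 measured adaptors and kinases of the cascade, 1 was called: Map2k1, which encodes the ERK kinase MEK1, rose with gefitinib, at 10.47 to 11.14 (median 10.81) on treated arrays and 9.92 to 10.42 (median 10.13) on controls. That was a 1.57-fold difference (0.65 ± 0.09, adjusted p = 6.7e-05) without overlap. Over all genes 3.32% were called higher and 5.94% lower with gefitinib, so 1 call among 18 says little about the list. The median of these genes was 0.13 with gefitinib. With erlotinib it was -0.12, with 15 of 18 members below 0 and none called.

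Of the 12 measured feedback inhibitors of the pathway 2 rose with gefitinib and none fell. Dusp7, a cytoplasmic phosphatase of ERK, rose 2.47-fold with gefitinib, at 7.42 to 8.09 (median 7.94) on treated arrays against 6.30 to 6.94 (median 6.45) on controls (1.31 ± 0.13, adjusted p = 4.99e-06), without overlap. Dusp5, the nuclear ERK phosphatase, rose 1.89-fold, at 7.90 to 8.91 (median 8.38) on gefitinib arrays against 7.20 to 8.24 (median 7.36) on controls (0.92 ± 0.17, adjusted p = 0.000821), with overlap. The other 10 were not called with gefitinib. Dusp1 at -0.37, Lrig1 at -0.38, Errfi1 at 0.26 and Spry1 at 0.27 were the farthest from 0, and Dusp6, Spry4, Spry2, Dusp4, Spred3 and Rasa1 lay between -0.24 and 0.15. The list's median was 0.06.

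With erlotinib none of the 12 feedback inhibitors was called, and 10 of 12 lay below 0 with a median of -0.19, beside -0.02 for all genes. Dusp6, which inactivates ERK in the cytoplasm, held 7.26 to 8.25 (median 7.80) on erlotinib arrays and 8.13 to 9.20 (median 8.53) on controls, a difference of -0.85 ± 0.18 (adjusted p = 0.0425) with a narrow overlap. Dusp6 differed by -0.53 in the day-blocked fit (adjusted p = 0.166), with -1.13 and 0.28 within the hybridization days. Spry2, an inhibitor of receptor tyrosine kinase signalling to RAS, held 4.24 to 4.93 on erlotinib arrays and 4.60 to 5.30 on controls, a difference of -0.36 ± 0.11 (adjusted p = 0.137). In the day-blocked fit Spry2 passed the threshold at -0.83 (adjusted p = 0.0054). Spry2 averaged 4.93 over the 22 arrays, below the median of every array. The other members were Dusp5 at -0.32 (-0.67 in the day-blocked fit), Spry1 at -0.29, Lrig1 at -0.25, Dusp7 at -0.20, Rasa1 at -0.17, Dusp1 at -0.14, Spry4 at -0.13, Dusp4 at -0.04, Errfi1 at 0.06 and Spred3 at 0.24. Several of these small differences turned or moved within the hybridization days. There Dusp7 differed by -0.17 and 0.38, Dusp4 by 0.05 and 0.10 and Errfi1 by -0.08 and -0.09. Spry4 differed by -0.61 and -0.15 and Spred3 by 0.10 and 0.08.

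**Figure D2:**
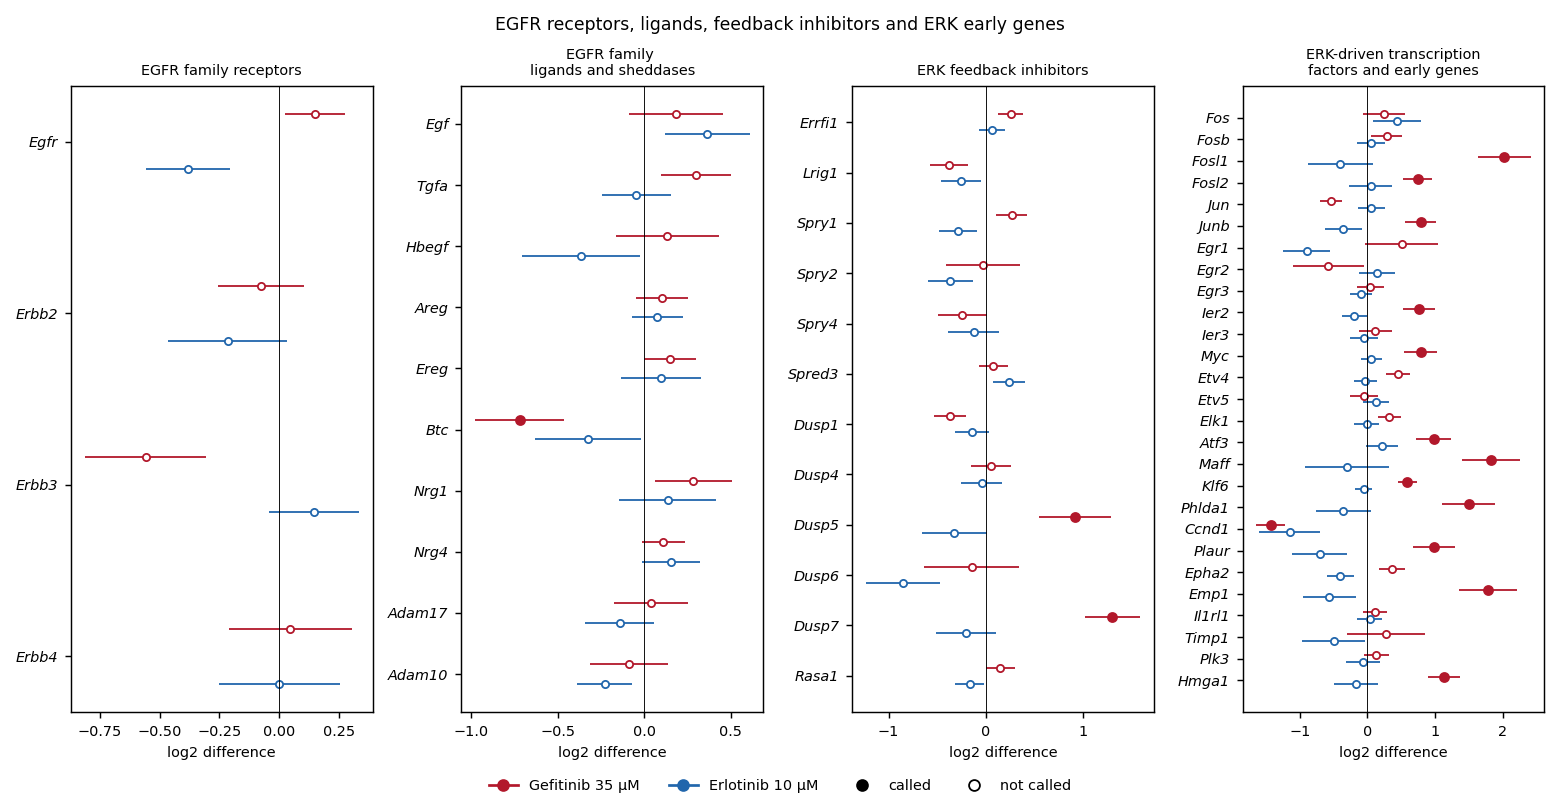
Log2 difference (treated minus own DMSO controls, points) with its 95% confidence interval (lines) for the measured receptors, ligands and sheddases, feedback inhibitors and ERK-driven early genes, gefitinib in red above erlotinib in blue for each gene; filled points were called. No receptor is filled, and on the panel of early genes 13 gefitinib points are filled and no erlotinib point.

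Of 27 measured transcription factors and early genes that ERK drives, 12 rose and 1 fell with gefitinib, at a median of 0.46 beside 0.02 for all genes. Fosl1, the AP-1 subunit FRA-1, held 9.06 to 10.17 (median 9.81) on gefitinib arrays and 6.80 to 8.62 (median 7.60) on controls, a 4.06-fold rise (2.02 ± 0.18, adjusted p = 1.84e-06) without overlap. Maff, a small MAF factor, rose 3.55-fold (1.83 ± 0.20, adjusted p = 9.45e-06) and Emp1, a membrane protein induced by growth factors, 3.45-fold (1.78 ± 0.20, adjusted p = 1.19e-05), both without overlap. Klf4, a zinc finger factor from outside this list, rose 5.87-fold (2.55 ± 0.23, adjusted p = 1.6e-06). The member that fell was Ccnd1, cyclin D1, the cyclin of G1 entry: 7.09 to 7.88 (median 7.20) on gefitinib arrays and 8.35 to 9.23 (median 8.80) on controls, 2.69-fold lower (-1.43 ± 0.10, adjusted p = 2.15e-07). All 6 gefitinib arrays lay below all 8 controls for Ccnd1. Egr1, the immediate-early zinc finger factor, picked here after its values were seen, differed by 0.51 ± 0.25 with gefitinib and was not called (adjusted p = 0.14).

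None of the 27 early genes was called with erlotinib, and 18 lay below 0, at a median of -0.06. Egr1 held 7.37 to 8.47 (median 7.80) on erlotinib arrays and 8.36 to 9.20 (median 8.68) on controls, -0.90 ± 0.16 (adjusted p = 0.0213), with an overlap of the extremes. In the day-blocked fit the Egr1 difference was -1.52 and passed the threshold (adjusted p = 0.00239). Ccnd1 held 7.50 to 8.53 (median 8.07) on erlotinib arrays and 8.57 to 9.93 (median 9.14) on controls, -1.15 ± 0.21, without overlap but short of the adjusted threshold (adjusted p = 0.0233). The day-blocked difference of Ccnd1 was -0.58, with -0.80 and -0.28 within the days. Plaur, the urokinase receptor, differed by -0.71 (adjusted p = 0.104). Fosl1, picked after its values were seen, differed by -0.40 (adjusted p = 0.385). Of 34 measured cell cycle genes none was called with erlotinib, and with gefitinib Ccnd1 was the 1 called.

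Macrophage genes fell with gefitinib. Of 12 measured Kupffer cell and macrophage markers 10 fell, all 10 without overlap, and the list's median was -2.45. Cd5l, a scavenger protein secreted by tissue macrophages, was at 4.13, 3.58 and 3.59 on the 0.67 d gefitinib arrays and 3.79, 3.82 and 4.19 on the 1 d ones, against 10.42, 9.11, 8.90 and 8.63 on the 0.67 d controls and 10.74, 9.20, 9.16 and 9.49 on the 1 d controls. That was 48.8-fold lower (-5.61 ± 0.28, adjusted p = 1.05e-08), with every gefitinib array far below every control. C1qa, a chain of complement C1q, which macrophages make, held 3.98 to 4.93 (median 4.42) on gefitinib arrays and 8.14 to 9.73 (median 8.75) on controls, 21.2-fold lower (-4.41 ± 0.22, adjusted p = 1.05e-08). Its partner chains C1qb and C1qc were 14.3-fold and 19.4-fold lower.

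The 8 genes with the lowest gefitinib differences held these 4 and 4 others. Cybb, the catalytic subunit of the phagocyte NADPH oxidase, was 23.8-fold lower (-4.57 ± 0.21), Fcer1g, a signalling chain of Fc receptors, 17.9-fold lower (-4.16 ± 0.19), and the MHC class II chain RT1-Da 21.4-fold lower (-4.42 ± 0.31). Ifitm1, an interferon-induced membrane protein, was 11.8-fold lower (-3.55 ± 0.38). Csf1r, the receptor of the macrophage growth factor M-CSF, picked here after its values were seen, held 3.92 to 4.32 (median 4.01) on gefitinib arrays and 6.28 to 7.71 (median 7.11) on controls, 7.56-fold lower (-2.92 ± 0.20, adjusted p = 2.24e-07). Adgre1 (F4/80), Cd163, Clec4f, Tyrobp, Lyz2 and Ptprc made up the rest of the called markers, at -3.22, -2.56, -2.33, -2.16, -1.85 and -0.72. The members not called were Cd68, at 0.21 (adjusted p = 0.73), and Aif1, at -0.01 (adjusted p = 0.934).

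The mean level of the 12 macrophage markers was 5.02 to 5.4 on gefitinib arrays and 7.22 to 7.97 on their controls. In RNA from a whole culture, fewer cells of a type and less RNA per cell cannot be told apart. Within each hybridization day Cd5l was lower by gefitinib, at -6.62, -5.45 and -5.14, and the list's median was -2.62 among arrays of the low Fam111a class and -2.47 among those of the high class. Of the other non-hepatocyte markers, 0 of 12 stellate cell markers were called. Among 10 endothelial markers Kdr, the VEGF receptor, fell 2.49-fold (adjusted p = 0.00505) and Stab1, a scavenger receptor of sinusoidal endothelium, 1.54-fold (adjusted p = 9.65e-05). Of 7 cholangiocyte markers Epcam fell 1.70-fold (adjusted p = 0.00738). The call was lost under 11 of 35 alternatives for Kdr and 20 of 35 for Epcam.

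With erlotinib none of the 12 macrophage markers was called, and their mean level was 7.04 to 7.68 on treated arrays and 7.32 to 7.67 on controls. Cd5l, picked for its gefitinib values, held 8.24 to 9.50 (median 9.02) on erlotinib arrays and 8.19 to 9.49 (median 8.76) on controls, a difference of 0.14 ± 0.22 (adjusted p = 0.792). Csf1r held 6.00 to 6.89 (median 6.39) on erlotinib arrays and 6.63 to 7.50 (median 6.99) on controls, -0.55 ± 0.17 (adjusted p = 0.144). Adgre1 differed by -0.84 (adjusted p = 0.296) and C1qc by -0.36 (adjusted p = 0.08). In the day-blocked fit, whose controls on the treated days were of the other Fam111a class, the list's median was -0.40, against -0.20 with the own controls, and Clec4f was called lower at -1.01 (adjusted p = 0.00317; 0.11 with the own controls). There Cd5l, which is not on the list, passed the threshold at -1.10 (adjusted p = 0.00203). None of the 10 listed endothelial markers was called, but 3 of 10 did not overlap, beside 1.47% of all genes. Emcn, an endothelial gene outside this list that is described below, was called lower at -0.71. Lyve1 differed by -1.28 (adjusted p = 0.0432), Kdr by -1.11 (adjusted p = 0.0134) and Stab1 by -0.45 (adjusted p = 0.0277). Within the hybridization days Lyve1 differed by -1.93 and 0.40, Kdr by -2.20 and -0.10 and Stab1 by -0.31 and 0.05. The mean level of the endothelial markers was 4.95 to 5.63 on erlotinib arrays and 5.47 to 5.81 on controls. Its part in the erlotinib calls was not tested.

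**Figure D3:**
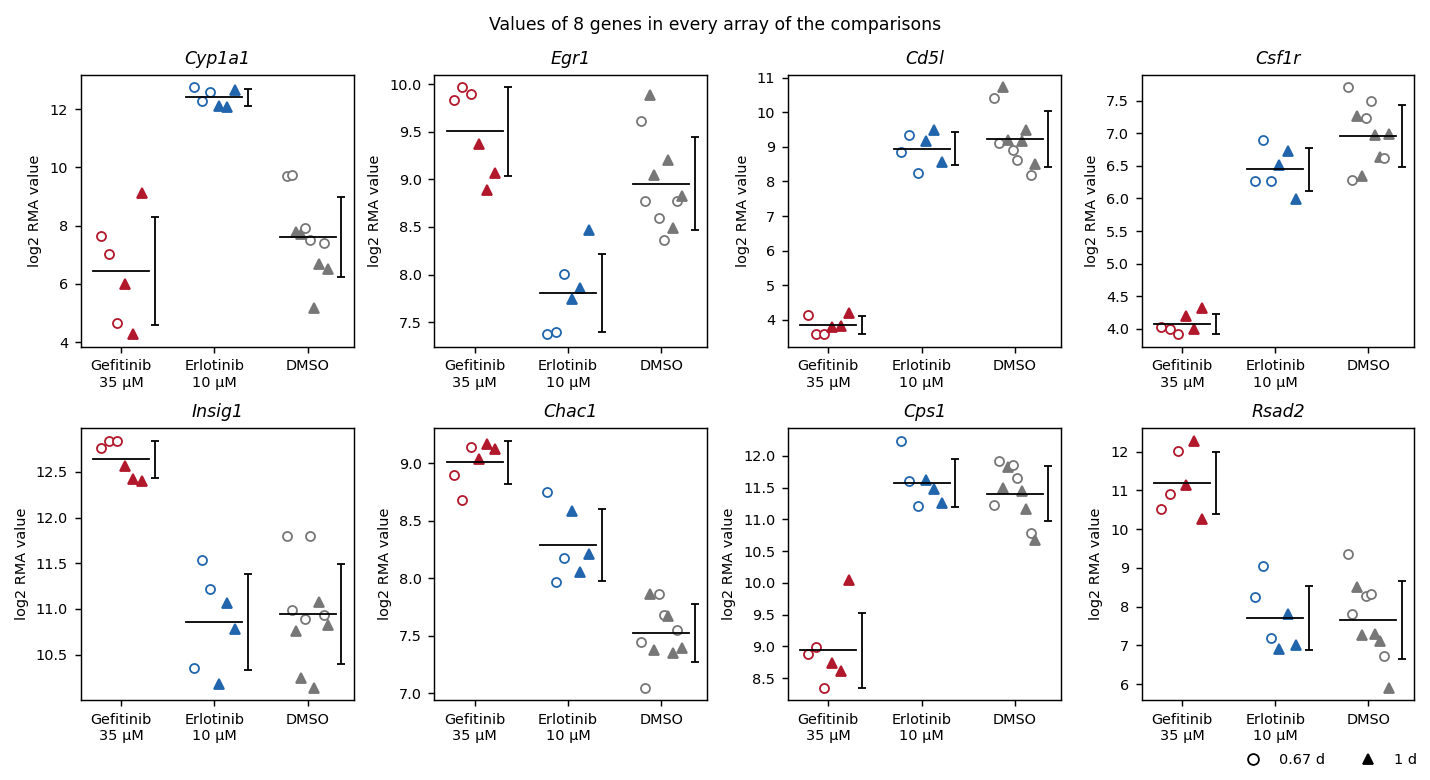
Log2 RMA value of 8 genes on every gefitinib array (red, left), erlotinib array (blue) and DMSO array (grey, right), with open circles for 0.67 d and filled triangles for 1 d; black lines are group means and the bars beside them 1 SD, over 6, 6 and 10 arrays. Cyp1a1 is at 12.09 or more on every erlotinib array and Cd5l at 4.19 or less on every gefitinib array.

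Sterol and fatty acid synthesis genes rose with gefitinib. Of 19 measured cholesterol synthesis genes 13 rose and none fell, at a median of 0.91. Insig1, which holds the sterol sensor SCAP in the endoplasmic reticulum and is itself a target of SREBP, held 12.40 to 12.84 (median 12.66) on gefitinib arrays and 10.14 to 11.80 (median 10.94) on controls, a 3.19-fold rise (1.67 ± 0.18, adjusted p = 7.47e-06) without overlap. Lss, lanosterol synthase, rose 2.82-fold (1.50 ± 0.11, adjusted p = 2.8e-07) and Hsd17b7, a later enzyme of the same route, 2.69-fold (1.43 ± 0.16, adjusted p = 8.95e-06). Of 18 fatty acid and triglyceride genes 6 rose. Fasn, fatty acid synthase, held 10.21 to 10.65 (median 10.49) on gefitinib arrays and 8.46 to 8.97 (median 8.65) on controls, 3.41-fold higher (1.77 ± 0.10, adjusted p = 2.41e-08). Pnpla3, a lipid droplet acyl hydrolase, rose 3.62-fold (1.86 ± 0.10, adjusted p = 2.41e-08). Scd2, a stearoyl-CoA desaturase, ranged widely, from 6.56 to 9.25 on gefitinib arrays against 5.18 to 7.58 on controls, and was not called (adjusted p = 0.037). Of 22 lysosomal genes 2 rose, Grn (progranulin) among them at 1.63-fold, and Ctsz (cathepsin Z) fell 1.61-fold.

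With erlotinib none of the 19 cholesterol synthesis genes and none of the 18 fatty acid genes was called. The medians were -0.16 and -0.09, and 18 of the 19 sterol genes lay below 0. The day-blocked fit called 1 sterol gene lower, Msmo1, a sterol methyl oxidase, at -0.60 (adjusted p = 0.00562; -0.16 with the own controls), and the fatty acid median was 0.06 there. Insig1, set beside its gefitinib values, held 10.18 to 11.54 (median 10.92) on erlotinib arrays and 10.14 to 11.80 (median 10.91) on controls, a difference of -0.09 ± 0.24 (adjusted p = 0.885).

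Targets of ATF4 and CHOP, the transcription factors of the integrated stress response, rose with gefitinib. All 22 listed genes were measured and 16 rose, none fell, and the median was 0.84. Slc7a11, the cystine transporter, held 8.15 to 9.99 (median 9.18) on gefitinib arrays and 4.95 to 7.49 (median 6.16) on controls, a 7.76-fold rise (2.96 ± 0.35, adjusted p = 1.98e-05). Ddit3, which encodes CHOP, rose 3.30-fold (1.72 ± 0.24, adjusted p = 6.07e-05). Chac1, an enzyme that degrades glutathione, was at 8.90, 8.68 and 9.14 on 0.67 d gefitinib arrays and 9.03, 9.17 and 9.12 on 1 d ones, against 7.45, 7.05, 7.86 and 7.68 on 0.67 d controls and 7.86, 7.37, 7.67 and 7.35 on 1 d controls. Every gefitinib array lay above every control for Chac1, a 2.77-fold difference (1.47 ± 0.12, adjusted p = 1.12e-06). The mean level of the 22 genes was 9.58 to 9.72 on gefitinib arrays and 8.49 to 8.96 on controls. Of 16 endoplasmic reticulum chaperone genes 2 rose.

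A known binding motif of ATF4 paired with C/EBP factors, TGATGNAA (N is any base), was searched on both strands of the promoters from RefSeq on build GRCr8, 250 bases before to 50 after each start site. It was found in 4 of the 16 genes of this list called with gefitinib, and in 1048 of 27457 promoters overall (3.82%). The 4 promoters are printed because the list rose together; each is written 5' to 3' along its gene, and the capitals mark the motif, which in all 4 reads on the opposite strand. Counted from the start site, the match lies at -167 in Chac1 (chr3:126795881-126796180, plus strand), at -21 in Trib3, a pseudokinase that binds ATF4 (chr3:161275484-161275783, minus strand), at -55 in Nupr1, a stress-induced nuclear protein (chr1:190645852-190646151, minus strand), and at -143 in Fgf21, a hepatic hormone (chr1:105221327-105221626, minus strand).
Chac1: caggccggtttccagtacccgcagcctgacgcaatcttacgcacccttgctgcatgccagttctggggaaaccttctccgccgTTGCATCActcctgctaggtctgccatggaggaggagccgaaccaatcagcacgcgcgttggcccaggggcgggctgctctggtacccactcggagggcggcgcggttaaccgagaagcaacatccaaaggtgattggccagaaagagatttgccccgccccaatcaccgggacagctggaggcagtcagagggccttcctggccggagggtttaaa
Trib3: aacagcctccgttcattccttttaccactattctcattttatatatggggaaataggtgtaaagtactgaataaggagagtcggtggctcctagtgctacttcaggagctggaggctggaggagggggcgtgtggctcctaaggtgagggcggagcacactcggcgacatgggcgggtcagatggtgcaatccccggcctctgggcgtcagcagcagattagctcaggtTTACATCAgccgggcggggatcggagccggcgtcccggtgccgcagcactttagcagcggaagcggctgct
Nupr1: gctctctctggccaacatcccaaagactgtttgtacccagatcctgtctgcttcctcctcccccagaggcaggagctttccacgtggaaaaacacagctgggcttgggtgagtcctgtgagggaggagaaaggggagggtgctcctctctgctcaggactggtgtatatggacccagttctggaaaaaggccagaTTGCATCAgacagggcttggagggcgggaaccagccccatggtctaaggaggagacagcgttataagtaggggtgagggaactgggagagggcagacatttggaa
Fgf21: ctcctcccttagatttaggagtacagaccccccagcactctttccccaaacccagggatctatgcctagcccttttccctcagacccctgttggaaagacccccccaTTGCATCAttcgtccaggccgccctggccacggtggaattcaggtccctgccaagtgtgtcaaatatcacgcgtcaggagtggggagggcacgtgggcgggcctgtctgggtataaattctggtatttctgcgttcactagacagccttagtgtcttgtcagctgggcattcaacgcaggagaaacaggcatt
Beside these promoters stood rises with gefitinib of 1.96-fold for Trib3 (0.97 ± 0.08, adjusted p = 5.83e-07), 1.80-fold for Nupr1 (0.85 ± 0.13, adjusted p = 0.000173) and 2.11-fold for Fgf21 (1.08 ± 0.21, adjusted p = 0.00102), genes picked after their values were seen. A match describes the letters and was not tested as a binding site.

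With erlotinib 21 of the same 22 genes lay above 0, at a median of 0.50 beside -0.02 for all genes, but none was called. Psat1, an enzyme of serine synthesis, held 10.07 to 10.40 (median 10.29) on erlotinib arrays and 8.85 to 10.07 (median 9.30) on controls, 0.95 ± 0.17 (adjusted p = 0.0201). Atf5 differed by 0.92 (adjusted p = 0.0198; 0.56 in the day-blocked fit), and Mthfd2, a mitochondrial folate enzyme, by 0.86 (adjusted p = 0.0158). Chac1 differed by 0.70 (adjusted p = 0.0274). These 4 genes did not overlap between erlotinib and control arrays, nor did 2 others of the list, beside 1.47% of all genes. The day-blocked fit called 5 of the 22 as higher: Psat1 at 0.99, Mthfd2 at 0.82, Ddit3 at 0.72, Nupr1 at 0.71 and Asns, asparagine synthetase, at 0.67. With the own controls Ddit3 was at 0.21 and Nupr1 at 0.35. The list's median was 0.41 in the day-blocked fit. Slc7a11, set beside its gefitinib values, differed by 0.75 with the own controls, but by -0.66 and 0.11 within the hybridization days.

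Genes of the differentiated hepatocyte fell with gefitinib. Of 20 measured hepatocyte markers 7 fell and none rose, at a median of -0.65. Cps1, the entry enzyme of the urea cycle, held 8.35 to 10.05 (median 8.81) on gefitinib arrays and 11.16 to 11.92 (median 11.58) on controls, 6.24-fold lower (-2.64 ± 0.22, adjusted p = 9.29e-07), without overlap. Otc, the next enzyme of that cycle, was 4.50-fold lower (-2.17 ± 0.27, adjusted p = 2.54e-05) and Cyp2c11, the male-specific cytochrome P450 of rat liver, 3.55-fold lower (-1.83 ± 0.40, adjusted p = 0.00261). Alb, albumin, picked after its values were seen, held 14.31 to 14.43 on gefitinib arrays and 14.37 to 14.47 on controls and was not called (-0.03 ± 0.04, adjusted p = 0.695). The mean level of the hepatocyte markers was 10.13 to 11.12 on gefitinib arrays and 11.24 to 11.75 on controls. The part of that shift and of the macrophage markers in the other gefitinib results was not tested.

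Secreted complement and coagulation proteins and hepatic transporters were also lower with gefitinib. Of 18 complement and coagulation genes 8 fell, none rose, and all 18 lay below 0. Mbl2, a mannose-binding lectin, held 7.71 to 8.73 (median 8.06) on gefitinib arrays and 10.25 to 11.84 (median 10.80) on controls, 6.55-fold lower (-2.71 ± 0.22, adjusted p = 6.6e-07). C5 was 3.16-fold and C8a 2.55-fold lower. Of 15 bile acid genes 5 fell, among them Baat, which conjugates bile acids (6.31-fold, -2.66 ± 0.44, adjusted p = 0.000298), and the uptake transporters Slco1b2 (4.69-fold, -2.23 ± 0.20, adjusted p = 1.48e-06) and Slc10a1 (3.76-fold, -1.91 ± 0.24, adjusted p = 3.4e-05). Baat ranged from 4.76 to 9.09 on gefitinib arrays, and its groups overlapped. With erlotinib none of the hepatocyte, complement or bile acid genes was called. The medians of these lists with erlotinib were 0.06, 0.00 and 0.03, and the mean level of the hepatocyte markers was 11.23 to 11.61 on treated arrays and 11.13 to 11.69 on controls. In the day-blocked fit the medians were -0.10, -0.13 and -0.08, and Cyp8b1, an enzyme of cholic acid synthesis, was called lower at -0.78 (adjusted p = 0.00595; -0.11 with the own controls).

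The main change with erlotinib was in Cyp1a1, the cytochrome P450 that the aryl hydrocarbon receptor (AhR) induces. Its values on 0.67 d arrays were 12.77, 12.29 and 12.58 with erlotinib, against 7.92, 7.52 and 7.39 on controls. On 1 d arrays they were 12.10, 12.09 and 12.65 with erlotinib, against 5.16, 6.68 and 6.52 on controls. Every erlotinib array was above every control, a 46.8-fold difference (5.55 ± 0.28, adjusted p = 3.83e-07), and Cyp1a1 was the 1 gene called in each time alone, though with all 10 controls no gene was called at 0.67 d. The day-blocked difference was 3.70 (adjusted p = 0.000192), with 3.57 and 3.89 within the hybridization days, whose controls held Cyp1a1 at 7.73 to 9.73. The other AhR targets were not called with erlotinib: Cyp1a2, its liver-enriched relative, differed by 0.57 (adjusted p = 0.0817; 0.27 in the day-blocked fit), Nqo1, a quinone reductase, by 0.50 (adjusted p = 0.0725) and Tiparp, an AhR repressor picked after its values were seen, by 0.29 (adjusted p = 0.204). With the own controls all 7 measured AhR targets lay above 0, at a median of 0.33, which was 0.27 in the day-blocked fit. Cyp1b1, another P450 of this list picked after its values were seen, was at 0.33 with the own controls. Within the hybridization days Cyp1b1 differed by -0.92 and 0.25.

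With gefitinib Cyp1a1 ranged from 4.27 to 9.13 (median 6.51) on treated arrays and from 5.16 to 9.73 (median 7.75) on controls, a difference of -1.32 ± 0.76 that was not called (adjusted p = 0.208). Its 2 highest gefitinib values, 9.13 and 7.64, stood on arrays of different days and times. None of the 7 AhR targets was called with gefitinib, at a median of 0.08.

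Drug metabolism genes listed as targets of the nuclear receptors CAR and PXR moved in different directions with gefitinib. Of 14 listed genes measured, 4 fell and 1 rose, at a median of -0.61. Cyp2b1 and Cyp2b2 were listed but not measured, and a part of CAR or PXR in these changes was not tested. Cyp2b3, a P450 of the CYP2B family, held 7.34 to 9.87 (median 8.12) on gefitinib arrays and 10.50 to 11.89 (median 11.10) on controls, 6.83-fold lower (-2.77 ± 0.35, adjusted p = 3.04e-05), and Ugt2b1, a glucuronosyltransferase, was 2.54-fold lower (-1.34 ± 0.16, adjusted p = 1.42e-05). Abcb1a, the drug efflux pump P-glycoprotein, rose 3.62-fold, at 8.66 to 10.26 (median 9.68) on gefitinib arrays against 7.34 to 8.43 (median 7.74) on controls, without overlap (adjusted p = 6.2e-06). With erlotinib Ugt2b1 rose 1.90-fold, at 7.11 to 7.94 (median 7.71) on treated arrays against 6.24 to 7.07 (median 6.65) on controls (0.93 ± 0.13, adjusted p = 0.0085). Cyp3a23-3a1, an inducible CYP3A enzyme, held 10.98 to 11.87 on erlotinib arrays and 9.09 to 10.73 on controls, without overlap, but was not called (1.24 ± 0.19, adjusted p = 0.0119). Cyp3a23-3a1 differed by 0.34 in the day-blocked fit, with 0.21 and 0.53 within the days. The same fit called 3 of the 14 lower with erlotinib, Cyp3a18 at -1.43, Cyp3a9 at -1.18 and Cyp2c7 at -0.99 (0.26, -0.29 and 0.10 with the own controls), and Ugt2b1 higher. Members of P450 and glucuronosyltransferase families are similar in sequence, so a probe set may read more than 1 of them.

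The other genes called with erlotinib changed 1.51-fold to 2.16-fold. G0s2, an inhibitor of triglyceride lipase, held 8.55 to 9.41 (median 9.01) on erlotinib arrays and 7.21 to 8.76 (median 8.00) on controls (0.97 ± 0.12, adjusted p = 0.00308), but differed by 0.18 in the day-blocked fit and was not called there. Tsku, a secreted leucine-rich proteoglycan, rose 1.85-fold (0.88 ± 0.11, adjusted p = 0.00335), without overlap. F2r, the thrombin receptor PAR1, fell 2.16-fold, at 4.48 to 5.36 (median 5.04) on erlotinib arrays against 5.09 to 6.69 (median 6.23) on controls (-1.11 ± 0.15, adjusted p = 0.00598). Loxl2, a collagen-crosslinking lysyl oxidase, fell 1.95-fold without overlap (-0.96 ± 0.10, adjusted p = 0.00193), but differed by -0.46 in the day-blocked fit, with -0.88 and 0.11 within the days. Frmd6, a FERM-domain protein of the Hippo pathway, and F3, tissue factor, the trigger of coagulation, fell by 0.82 and 0.75 on the log2 scale. Emcn, the endothelial sialomucin endomucin, held 4.12 to 4.38 on erlotinib arrays and 4.71 to 5.24 on controls, and fell 1.63-fold (adjusted p = 0.00598). Over the 22 arrays Emcn averaged 4.60 and F2r 5.50, both low values that lay below the median of every array. Slc25a25, a mitochondrial carrier, Map3k7cl and Syne1, the nuclear envelope protein nesprin-1, fell by 0.69, 0.68 and 0.60. Frmd6, F3, Map3k7cl and Syne1 differed by -0.50, -0.36, -0.32 and -0.43 in the day-blocked fit and were not called. Beside Cyp1a1 and Ugt2b1, the calls shared with the day-blocked fit were Tsku, F2r, Slc25a25 and Emcn.

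The largest rise with gefitinib was that of Cd69, a membrane lectin best known as an activation marker of lymphocytes. It was at 7.20, 8.85 and 9.03 on 0.67 d gefitinib arrays and 9.41, 8.70 and 6.96 on 1 d ones, against 4.42 to 4.79 on 0.67 d controls and 4.30 to 4.83 on 1 d controls. Every gefitinib array stood above every control, a 13.9-fold difference (3.80 ± 0.33, adjusted p = 1.48e-06). Cd44, the hyaluronan receptor, rose 5.33-fold (2.41 ± 0.10, adjusted p = 5.49e-09), Ampd3, an AMP deaminase, 6.58-fold (2.72 ± 0.19, adjusted p = 1.71e-07) and Sdcbp2, a syntenin, 6.98-fold (2.80 ± 0.37, adjusted p = 4.33e-05), each without overlap. Rsad2 (viperin), an interferon-induced antiviral enzyme, held 10.27 to 12.29 (median 11.02) on gefitinib arrays and 7.12 to 9.37 (median 8.03) on controls, 9.15-fold higher (3.19 ± 0.37, adjusted p = 1.35e-05). Ifit3, likewise interferon-induced, was at 7.55, 7.75 and 10.17 on 0.67 d gefitinib arrays and 7.67, 10.58 and 7.61 on 1 d ones, against 5.46 to 7.45 on controls (2.34 ± 0.52, adjusted p = 0.00271). The 2 high Ifit3 arrays were the 2 gefitinib arrays of the high Fam111a class. With the class as a block the Ifit3 difference was 2.49 (adjusted p = 0.000919). It was 1.30 among low-class arrays (adjusted p = 0.0268) and 4.28 among high-class arrays (adjusted p = 0.00171), and within hybridization days it was 0.60, 3.49 and 2.48. These splits by class were chosen after seeing the data.

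Calls in the remaining lists were fewer with gefitinib, and over all genes 3.32% were called higher and 5.94% lower. Zfand2a, a proteasome-associated stress protein, rose 4.12-fold (2.04 ± 0.12, adjusted p = 4.88e-08) among 10 heat shock genes, of which Cryab, a small heat shock protein, fell 2.82-fold (adjusted p = 7.36e-06). Of 16 genes that FOXO and fasting control, 3 rose and 2 fell: Igfbp1, a hepatic binding protein of insulin-like growth factors, was 2.77-fold higher (1.47 ± 0.36, adjusted p = 0.00549, the call lost under 15 of 35 alternatives) and Irs2, an insulin receptor substrate, 2.28-fold higher (1.19 ± 0.15, adjusted p = 2.93e-05), while Txnip, an inhibitor of thioredoxin and glucose uptake, was 2.51-fold lower (-1.33 ± 0.20, adjusted p = 0.000107). Among 14 NRF2 targets 3 rose, and Gclc, the catalytic subunit of glutathione synthesis, fell 2.18-fold. Slc7a11, also on the ATF4 and CHOP list, was among those that rose. Among 22 genes of YAP and the cytoskeleton Cd44 rose, while Myl9, a myosin light chain, and Vim, vimentin, fell 3.90-fold and 3.08-fold. Of 15 p53 targets 3 rose, with Sesn2 at 1.76-fold and Aen at 1.55-fold. Of 21 PPAR-alpha targets 1 rose, Fgf21, which is also on the ATF4 and CHOP list, and 2 fell. Of 15 acute phase genes 2 rose and 2 fell. With erlotinib none of these lists held a called gene, and Txnip differed by -0.66 (adjusted p = 0.0193). The day-blocked fit called Hspa1a, an inducible HSP70, lower at -0.91 (adjusted p = 0.0043; -0.67 with the own controls).

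With gefitinib 910 genes were called at 0.67 d and 927 at 1 d, and all 1316 calls of the joint comparison had the same sign at both times. A difference between the times passed an adjusted p of 0.05 for 1 gene, Cxcl6, a chemokine that attracts neutrophils: its gefitinib difference was 0.36 at 0.67 d and 1.86 at 1 d (interaction 1.50, adjusted p = 0.0224). With all 10 controls no gene passed. With erlotinib 1 gene was called at each time, Cyp1a1, at 4.94 and 6.16 on the log2 scale, and no difference between times passed (limma; 185 genes had an unadjusted p under 0.05, and 259 with gefitinib).

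**Figure D4:**
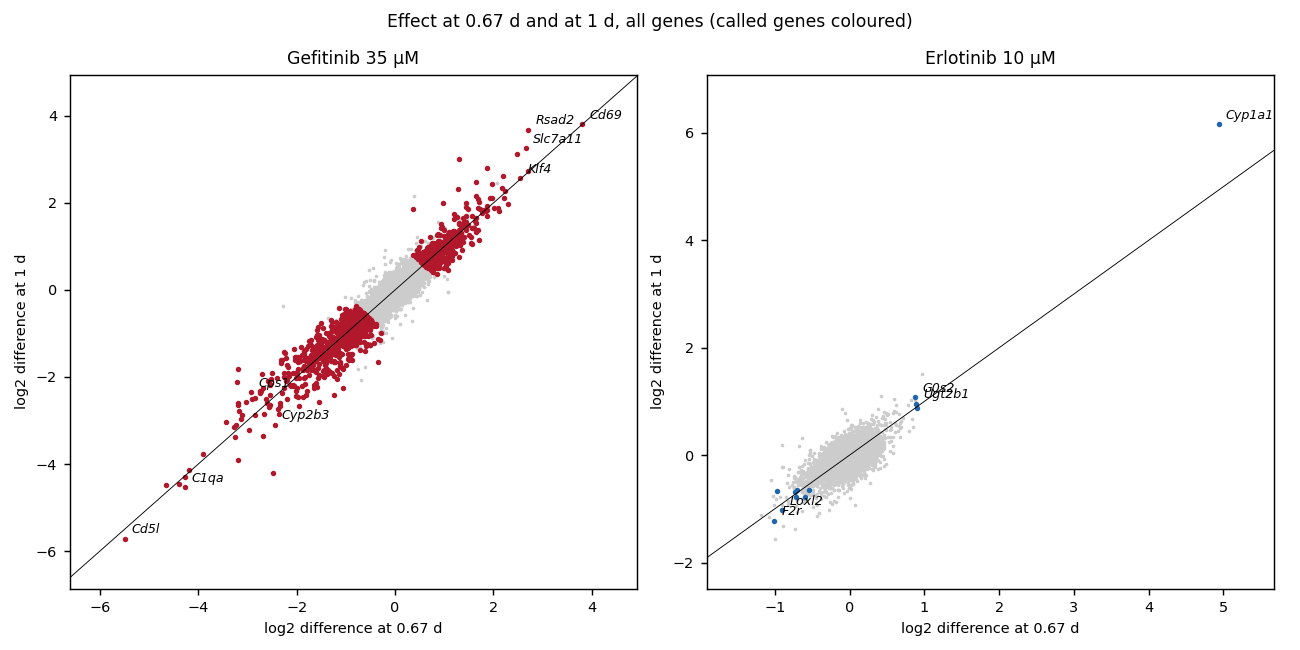
Log2 difference at 0.67 d (horizontal) against that at 1 d (vertical) for all 14218 genes, gefitinib on the left and erlotinib on the right, each point a gene, coloured where called over both times, with the diagonal of equal effects. Cd5l with gefitinib lies at -5.50 and -5.72 and Cyp1a1 with erlotinib at 4.94 and 6.16.

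Set among 113 other compounds of the hepatocyte set fitted in the same way, at doses and with controls of their own, gefitinib had fewer called genes than 48 and erlotinib fewer than 102, the median being 1002. The median of the macrophage markers ranged from -2.55 to 0.99 in the others and was below the gefitinib value of -2.45 with Mln-518, a kinase inhibitor given at 51 uM, which shares control arrays with gefitinib. Carvedilol at -1.95 and labetalol at -1.49 followed, and imatinib at 15 uM was at -0.81. Cd5l was called lower with 3 of the 113 and C1qa with 3, Csf1r with 5, and none of them was called higher with any. By contrast Cps1 was called lower with 70 of 113, Fosl1 higher with 57, Insig1 higher with 61, Chac1 higher with 63 and Cd69 higher with 53. Cyp1a1 was called higher with 23 and lower with 19, and 3 others exceeded the erlotinib difference, up to 5.87.

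**Figure D5:**
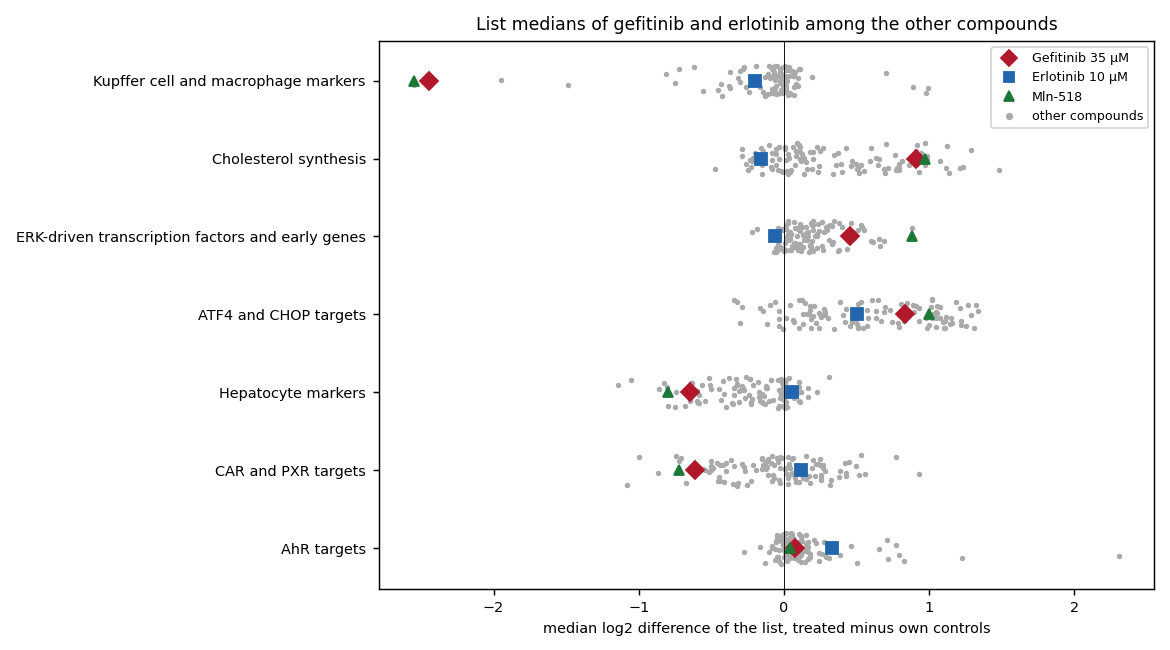
Median log2 difference (treated minus own controls) of 7 gene lists for gefitinib (red diamonds), erlotinib (blue squares), Mln-518 (green triangles) and the other compounds (grey dots, each a compound at its own dose, spread vertically for visibility). On the macrophage row gefitinib is at -2.45 and Mln-518 at -2.55.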

How the data were processed

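Values were the deposited log2 RMA expression values of the Affymetrix arrays, which the authors made with RMA per the labels and which were used as given. The array software and version were not given in the sources used here. Of 31099 probe sets 20832 had 1 gene symbol, 436 several and 9831 none in the platform annotation, and each of 14218 genes was read from its probe set with the highest mean over the 939 arrays. Each compound was compared with the control arrays naming it by limma 3.58.1 (R 4.3.3) with exposure time as a covariate, and p-values were Benjamini-Hochberg adjusted over all genes. The time difference came from an interaction term. The fits were tested on simulated data.

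Genes were named by rule: the 8 largest and 8 smallest called differences of each compound, all receptors, ligands and feedback inhibitors, 3 genes of each other list, and 3 genes a direction with the largest time difference. Members and lists were chosen with earlier results of these data known. Alternatives used other controls, blocks for hybridization day, extraction day, replicate number or Fam111a class, single times, other scalings, thresholds and probe set choices, and each array left out. Tables used Python 3.11.15 with pandas 2.3.3, and plots matplotlib 3.10.9. The number of arrays limits the precision.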

Additional observations from a re-analysis of the deposited data

Results flagged for a closer look

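Among 160 groups of arrays examined for an array standing apart, 4 held one, all on gefitinib arrays, and chance flags about 1 in 20 groups. C1qc was at 5.08 on the 0.67 d gefitinib array of hybridization day 1, with the other gefitinib arrays at 4.60 to 4.72. Slco1b2 was at 6.69 on the 1 d gefitinib array of day 2, with the others at 5.79 to 6.06. Cps1 was at 10.05 and C5 at 9.20 on the 1 d gefitinib array of day 3, with the others at 8.35 to 8.98 and 7.47 to 8.12. The same array held the highest gefitinib values of Baat (9.09) and Cyp2b3 (9.87). Its RNA was of extraction day 4 (days numbered within these arrays), while all other gefitinib arrays were of extraction day 2. A part of the extraction day in these values was not tested. The gefitinib effect on Cxcl6 differed between exposure times by a test of the difference itself: it was 1.50 higher on the log2 scale at 1 d than at 0.67 d.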

How the results depend on the processing

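Of 68 genes named as called with gefitinib, 26 stayed called under every alternative run and none reversed, and of 12 with erlotinib Cyp1a1 alone did; Syne1 reversed, to 0.0135, with the median of its probe sets. Gefitinib calls numbered 741 on 0.67 d arrays alone, 640 on 1 d arrays alone, 537 with a 2-fold bound, 4824 at an adjusted p of 0.05 with no fold bound, 523 on high Fam111a arrays alone (chosen after seeing the data), 696 without replicate 2, 1281 without replicate 1 and 1191 to 1363 with any 1 array left out. At 0.67 d they ranged from 563 to 975 and at 1 d from 522 to 969. The time difference of Cxcl6 was lost with all 10 controls (0 genes), after subtracting array medians (0) and in leave-outs (0 to 1).

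Erlotinib calls numbered 2 with the 4 shared controls, 81 with day as a fixed block, 24 with day as a random block, 28 with extraction day as a block, 1 at 0.67 d alone, 1 at 1 d alone, 1 without moderation, 2 with a 2-fold bound, 124 at an adjusted p of 0.05 with no fold bound and 23 with a block for Fam111a class (chosen after seeing the data). There was 1 call without replicate 1, 3 without replicate 2, and 2 to 16 with any 1 array left out: 2 or 3 without the erlotinib arrays 0.67 d replicate 2 or 1 d replicate 1 of day 1, or without either control of day 5 or the 0.67 d control of day 3, and 6 or 7 without the 1 d control of day 3, the 1 d array of day 2 or 0.67 d replicate 1 of day 1. The 0.67 d count was 0 with all 10 controls and 1 in all leave-outs, the 1 d count 1 to 2, and the time difference 0 throughout. The cause was not tested.

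Replicate numbers repeat within groups, so they were not taken to pair arrays. Residuals correlated by 0.10 on average over 90 same-number pairs (42 above 0.1) and by -0.10 over 84 other pairs (24 above 0.1). Residuals were centred within groups of few arrays, which partly builds in opposite signs, so pairing cannot be read from these means. Pairs of the same hybridization day correlated by 0.09 on average over 48 pairs, and pairs of other days by -0.04 over 126. With a replicate block there were 1373 gefitinib and 40 erlotinib calls, against 1316 and 12.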
